A study of Mus musculus with 18 samples.

Results

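Chemokine ligands are the small secreted proteins that steer leukocytes, and their genes were followed through RNA libraries of 2 sorted cell populations of the adult mouse small intestine. The members are every gene row of the count tables with a Ccl or Cxcl symbol that ends in a number or a copy letter, together with Cx3cl1 and Xcl1, which gave 39 of 23238 gene symbols. The populations were tdTomato-sorted stromal cells (IntSCs) and the lymphatic endothelium (LECs) of lacteals, which are the blind-ended lymphatic capillaries inside villi. Control mice, labelled WT here, carried PDGFRb+-CreERT2-Tomato+, that is, Cre-ERT2 driven by the Pdgfrb promoter and activated by tamoxifen, and the reporter. KO mice carried the same alleles and Lats1f/f Lats2 f/f in addition, all on C57BL/6J, and there were 6 WT and 5 KO libraries of IntSCs and 4 WT and 3 KO libraries of LECs. The Pdgfrb promoter is active in fibroblasts, pericytes and some smooth muscle cells, so that IntSCs are a mixture of these, and the LECs themselves were not targeted.

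Chemokines bind G protein-coupled receptors on leukocytes and are held on glycosaminoglycans, where they form gradients. Homeostatic members such as Ccl21, Ccl19, Cxcl12 and Cxcl13 are made constantly and place lymphocytes and dendritic cells in tissue, whereas inflammatory members such as Cxcl1, Ccl2 and Cxcl9 are induced by NF-kappaB or interferon signals. In lymphatic vessels Ccl21, a ligand of CCR7, is known for guiding dendritic cells and T cells into the lymph. Fibroblasts of the gut wall are known sources of Cxcl12, Ccl2 and neutrophil-attracting ligands.

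Total counts ranged from 5361250 to 10549233 per library. The 9 LEC markers summed to 7093 to 8549 CPM (counts scaled to a common library size) in WT LECs and 7585 to 10660 CPM in KO LECs, against 353 to 538 CPM in WT IntSCs and 573 to 732 CPM in KO IntSCs. The 9 stromal markers summed to 12100 to 17350 CPM in WT IntSCs, 8011 to 13160 CPM in KO IntSCs and 321 to 539 CPM in KO LECs. In WT LECs the stromal sum was 2238 CPM in replicate 1 and 644 to 684 CPM in the other 3 libraries, so replicate 1 stood apart. No marker of either list was at 0 in any group. Leukocyte markers, 12 genes, summed to 25.1 to 59.1 CPM in IntSCs and 0.200 to 38.4 CPM in LECs, and Cd3e was at 0 in every LEC library. Lats1 was at 0 to 30.1 CPM in WT IntSCs and 12.9 to 21.2 CPM in KO IntSCs, and Lats2 at 41.6 to 113 and 80.1 to 130 CPM. Neither gene fell in the libraries labelled KO (log2 fold changes of -0.12 and 0.65, edgeR p of 0.987 and 0.252 after Benjamini-Hochberg adjustment over all genes tested, below BH-adjusted p), so these counts did not check the labels, and KO below means the libraries so labelled.

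The Ccl21 genes were the first to need care, since they are near-identical copies. The coding sequences were read from GENCODE vM21 transcripts on GRCm38 (mm10): Ccl21a lies at chr4:42772860-42773993 on the minus strand and Ccl21b at chr4:42255767-42256432 on the plus strand. Both coding sequences have 402 bases and differ at 2 of them, T84A and C194T, written as the Ccl21a base, the position counted from the A of the start codon, and the Ccl21b base. The stretch of bases 61 to 210 is shown because it holds both differences, in capitals. A read within the coding sequence that covers neither cannot tell these copies apart. The annotated Ccl21b transcript held only the coding sequence, so Ccl21a and Ccl21b were not compared outside it.
Ccl21a: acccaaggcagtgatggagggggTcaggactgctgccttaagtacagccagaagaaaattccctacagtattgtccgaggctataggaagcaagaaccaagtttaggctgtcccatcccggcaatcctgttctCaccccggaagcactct
Ccl21b: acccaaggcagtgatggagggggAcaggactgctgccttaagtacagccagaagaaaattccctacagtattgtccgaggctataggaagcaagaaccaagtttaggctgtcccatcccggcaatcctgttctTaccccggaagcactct
The tables held 3 further symbols with that Ccl21b coding sequence: Gm10591 at chr4:42612195-42612860, Gm13304 at chr4:42114817-42115917 and Gm21541 at chr4:41903610-41904743. Over the 870 bases of the whole transcript, Gm21541 differed from Ccl21a at 6. No sequence of Ccl21c or of Gm1987, a further Ccl21-like symbol, was used here.

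A row here means a gene symbol after rows of the same symbol were summed. Some of these rows had equal or closely matching counts. Gm10591, Gm13304 and Gm21541 had equal counts in 18 of 18 libraries, from 19 to 232 reads in LECs and from 0 to 4 reads in IntSCs. Gm1987 had the same count as Ccl21a in 7 libraries, and in LECs the rows differed by at most 1.42% of the Ccl21a count. Ccl21b to Ccl21c ratios were 2.84 to 2.96 in the 7 LEC libraries. Before summing, Ccl21b had 3 rows, Ccl21a, Gm1987 and Gm21541 had 2 each, and Ccl21c, Gm10591 and Gm13304 had 1 each. Ratios between symbols are therefore not ratios between single copies, and the part of the summing in them was not tested. Ccl21a to Ccl21b ratios were 0.504 to 2.5 in WT IntSCs, 0.663 to 1.6 in KO IntSCs, 1.18 to 1.54 in WT LECs and 0.778 to 1.24 in KO LECs. How the authors' counting placed reads that match several copies was not given in the sources used here, so the level of a single copy is uncertain, and the copies are not independent observations. Ccl27a and Ccl27b form a similar pair, with 3 differences over 363 coding bases, and the neighbouring row Gm13306 matched the Ccl27b coding sequence.

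**Figure D1:**
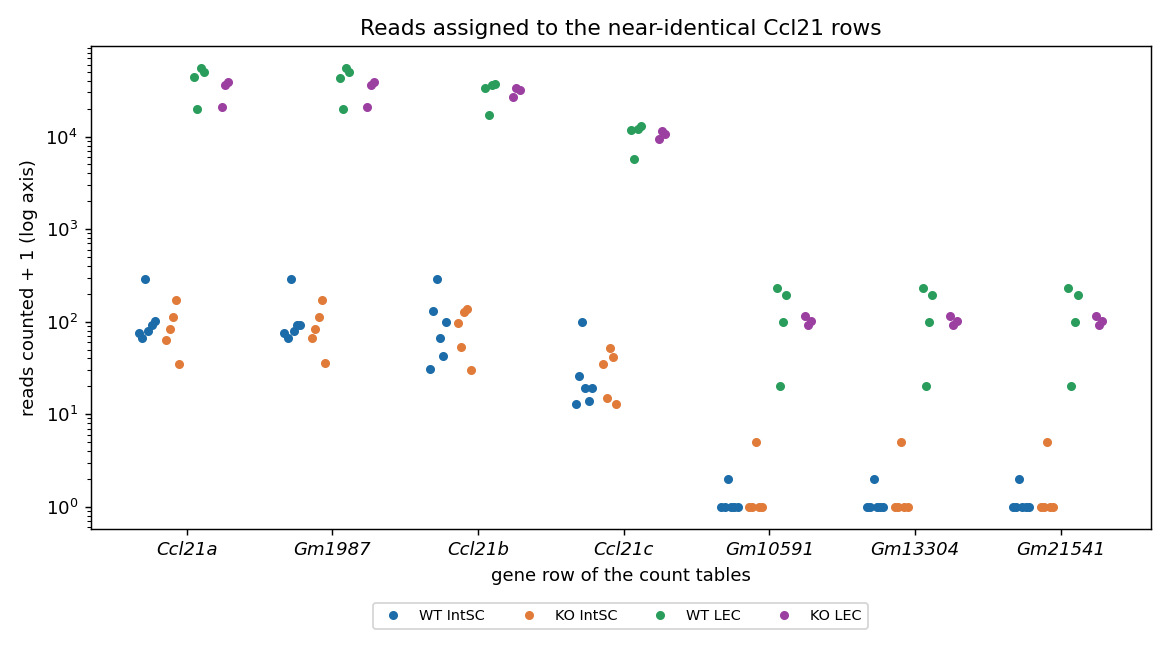
Reads assigned to 7 near-identical Ccl21 symbols (x axis) in each library, as counts plus 1 on a log axis, with 1 point per library coloured by group. Rows of the same symbol were summed. Ccl21a and Gm1987 lie at matching heights, Gm10591, Gm13304 and Gm21541 are equal, and every LEC point of a symbol lies above every IntSC point of that symbol.

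Of the 39 chemokine genes, 35 had a read in at least 1 library and 8 had a read in all 18. A mean of at least 10 CPM in at least 1 group was reached by 20: 15 did so in WT IntSCs, 16 in KO IntSCs, 11 in WT LECs and 8 in KO LECs. Ccl1, Ccl22, Ccl26 and Xcl1 had no read. Chemokine rows together took 0.0645% to 0.136% of the counts of an IntSC library and 0.607% to 1.13% of those of a LEC library. Ccl21a, Ccl21b and Ccl21c made up 93.9% to 97.9% of the chemokine counts in LECs and 1.29% to 9.07% in IntSCs. Shares are of counted reads with no correction for transcript length, and levels are compared below between libraries for the same gene, except for the ratio of the near-identical Ccl21 copies.

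**Figure D2:**
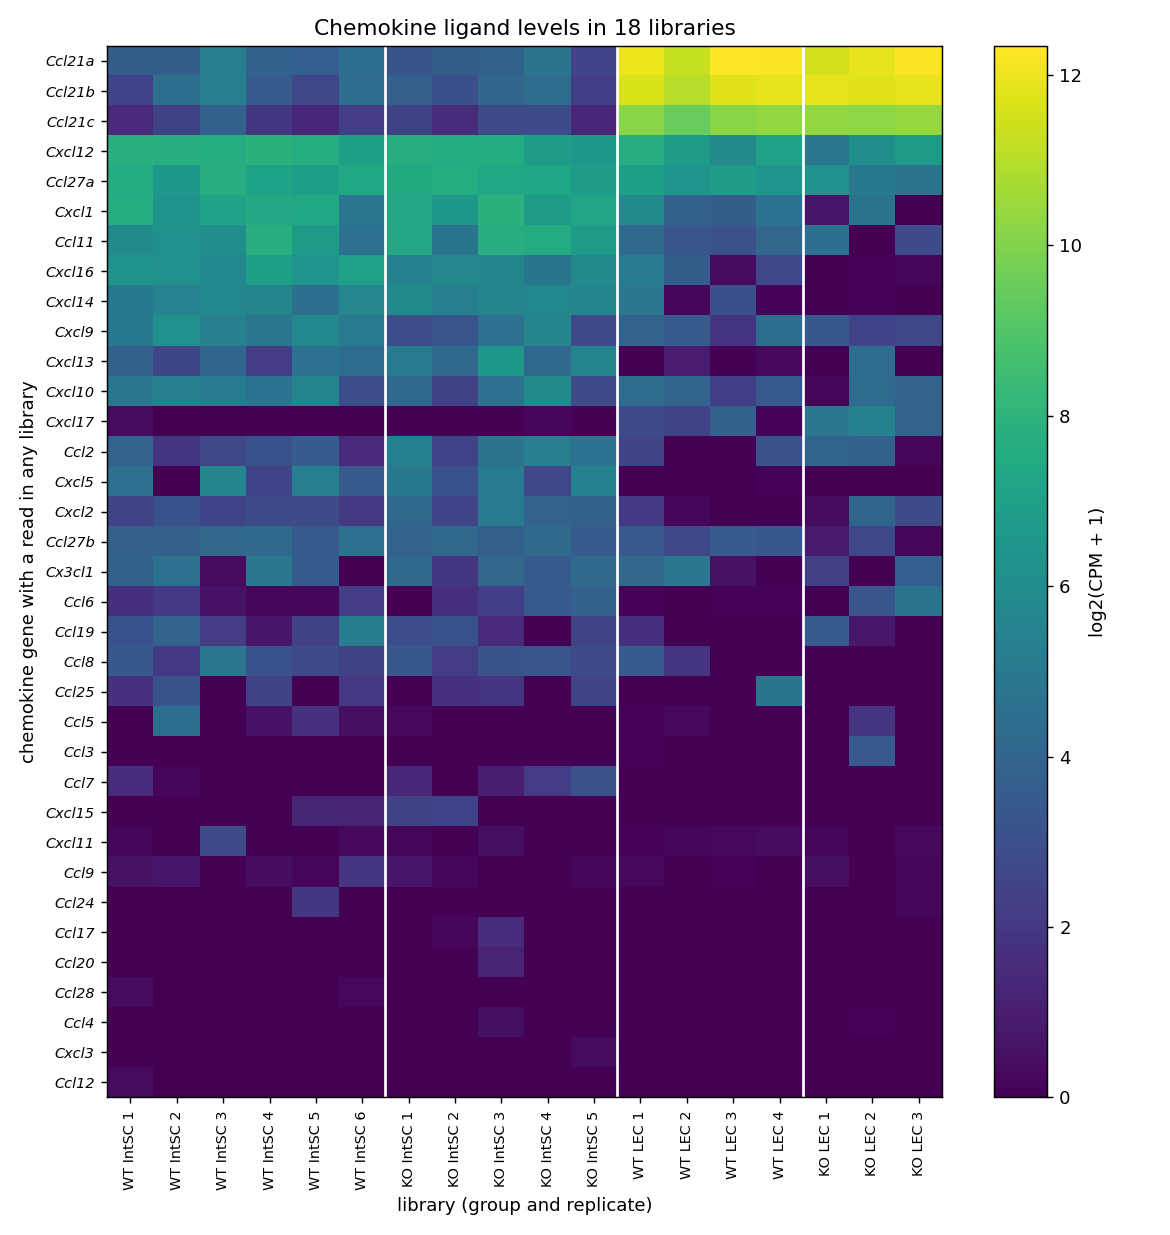
Heat map of log2(CPM + 1) for the 35 chemokine genes with a read (rows, ordered by highest group mean) in 18 libraries (columns, by group and replicate; white lines part the groups). The 3 Ccl21 rows are brightest in the 7 LEC columns, the Cxcl12 to Cxcl9 rows are brighter in IntSCs, and the lower rows hold reads in single libraries.

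The cell populations of control mice were compared first, to learn which chemokines each sorted population carried. LECs held higher Ccl21, and IntSCs held higher levels of a mixed set of neutrophil-, eosinophil-, B cell- and T cell-attracting ligands. Of 20 chemokine genes tested, 9 passed the test of edgeR at a BH-adjusted p under 0.05, with 3 higher and 6 lower in LECs, beside 22.6% of all genes tested (10.3% higher and 12.3% lower). The median log2 fold change of the 20 was -1.43, and -0.04 over all genes. With these bulk samples, fewer cells of a type and less RNA per cell cannot be told apart.

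Ccl21, the CCR7 ligand of lymphatic endothelium, showed the clearest separation. Ccl21a was at 4189.5, 2483, 5190.1 and 4989.5 CPM in WT LEC libraries 1 to 4, against a lowest, median and highest value of 11.4, 12.6 and 39.3 CPM in WT IntSCs. Ccl21b was at 3216, 2103, 3364 and 3732 CPM in the LECs and 4.57 to 38.8 CPM in the IntSCs. Ccl21c was at 1133, 712, 1136 and 1303 CPM in the LECs and 1.70 to 13.3 CPM in the IntSCs. WT LEC replicate 2 was the lowest LEC library in all 3 rows, and it still lay far above the highest IntSC library. The log2 fold changes were 7.87 ± 0.43 for Ccl21a, 7.51 ± 0.57 for Ccl21b and 7.84 ± 0.55 for Ccl21c (SE, edgeR BH-adjusted p of 1.47e-08, 3.22e-07 and 1.84e-07). With the 7 near-identical symbols summed as 1 gene, a choice made after seeing the data, the log2 fold change was 7.78 ± 0.46 (SE, edgeR BH-adjusted p = 4.09e-08). Ccl19, the other CCR7 ligand, lies beside Ccl21a at chr4:42754525-42756577. It was at 2.19, 0, 0 and 0 CPM in WT LECs, with reads in replicate 1 alone, and at 0.674, 6.03 and 36.1 CPM (lowest, median and highest) in WT IntSCs. Its log2 fold change of -4.29 did not pass (edgeR BH-adjusted p = 0.112), and without WT LEC replicate 1 the adjusted p was 0.00858.

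Among the neutrophil-attracting ligands, which act on CXCR2, Cxcl1 and Cxcl5 were lower in LECs. Cxcl1 was at 56.6, 12.6, 11.5 and 24.8 CPM in WT LECs and at 27.4, 149 and 198 CPM (lowest, median and highest) in WT IntSCs. Its log2 fold change was -2.29 ± 0.57 (SE, edgeR BH-adjusted p = 0.00999), although WT IntSC replicate 6 lay below WT LEC replicate 1, and in 1 fit of all 4 groups the adjusted p was 0.10. Cxcl5 had 1 read in all 4 WT LEC libraries and was at 0, 16.9 and 47.7 CPM in WT IntSCs, where replicate 2 had none. The ratio of summed counts was 907 (95% exact binomial interval 162 to 35900), an interval that covers counting error only, and the edgeR BH-adjusted p was 0.00221. Cxcl2 was at 3.24, 0.124, 0 and 0 CPM in WT LECs and 3.16 to 7.74 CPM in WT IntSCs, with only replicate 1 of the LECs inside the IntSC range. Its log2 fold change of -2.64 had an SE of 1.65 and an edgeR BH-adjusted p of 0.300.

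Of the homeostatic and membrane-bound ligands, Cxcl13 and Cxcl16 were lower in LECs. Cxcl13, which draws B cells through CXCR5, was at 0, 0.988, 0 and 0.200 CPM in WT LECs and 3.71, 14.1 and 24.3 CPM (lowest, median and highest) in WT IntSCs. The groups did not overlap, and the log2 fold change was -5.47 ± 1.53 (SE, edgeR BH-adjusted p = 0.0172). Cxcl16, a transmembrane ligand of CXCR6 at chr11:70453983-70459984, was at 33.8, 11.6, 0.281 and 5.40 CPM in WT LECs and 53.8, 83.9 and 134 CPM in WT IntSCs. Every LEC library lay below every IntSC library, with a log2 fold change of -2.84 ± 0.80 (SE, edgeR BH-adjusted p = 0.0192). Without WT LEC replicate 2 or 4 the adjusted p was 0.0683 and 0.0661. Cxcl12, the CXCR4 ligand at chr6:117168535-117181367, was at 206, 106, 54.2 and 137 CPM in WT LECs and 128, 206 and 246 CPM in WT IntSCs. These ranges overlapped, and the log2 fold change of -0.68 did not pass (edgeR BH-adjusted p = 0.147). Cxcl14, whose receptor is not settled, was at 28.9, 0.124, 7.04 and 0.10 CPM in WT LECs, 2 libraries having 1 read each, and at 22.6, 45.0 and 53.3 CPM in WT IntSCs. Its log2 fold change was -2.18 (edgeR BH-adjusted p = 0.178). Cx3cl1, the transmembrane ligand of CX3CR1, ranged widely in both populations, at 15.6, 28.4, 0.469 and 0 CPM in LECs and 0 to 28.3 CPM in IntSCs (edgeR BH-adjusted p = 0.953).

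In WT LEC replicate 1, the library with the high stromal sum, Cxcl12, Cxcl14, Cxcl16, Cxcl1, Ccl11 and Ccl8 were each at the highest level of the 4 LEC libraries. Others peaked elsewhere. Cxcl9 and Ccl2 were highest in replicate 4, at 21.2 and 7.30 CPM, and Cxcl13 in replicate 2, at 0.988 CPM. The only Cxcl5 read was in replicate 4. Without WT LEC replicate 1, 13 chemokine genes passed in place of 9. These were the same 9 and in addition Ccl19, Cxcl2, Cxcl12 and Cxcl14, the added ones all lower in LECs. Cxcl12 then had a log2 fold change of -1.02 (edgeR BH-adjusted p = 0.0313) and Cxcl14 one of -4.06 (edgeR BH-adjusted p = 0.0179). The part of stromal RNA in the levels of WT LEC replicate 1 was not tested.

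Of the interferon-induced ligands of CXCR3, which attract activated T cells, Cxcl9 was lower in LECs. Cxcl9 was at 14.4, 10.6, 2.72 and 21.2 CPM in WT LECs and 28.1, 36.9 and 72.8 CPM (lowest, median and highest) in WT IntSCs, with no overlap. Its log2 fold change was -1.82 ± 0.56 (SE, edgeR BH-adjusted p = 0.0279), and the adjusted p rose to 0.0526, 0.0675 and 0.0596 without WT LEC replicate 2, WT IntSC replicate 2 and WT IntSC replicate 5. Cxcl10 was at 18.8, 14.9, 3.94 and 10.3 CPM in LECs and 6.75 to 46.0 CPM in IntSCs, which overlapped (edgeR BH-adjusted p = 0.153). Cxcl11, annotated as a polymorphic pseudogene, reached 5.96 CPM in WT IntSC replicate 3 and stayed below 1 CPM in every other library.

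Among CC ligands outside the Ccl21 group, Ccl11 (eotaxin), which attracts eosinophils through CCR3, was lower in LECs. It was at 17.4, 8.89, 7.22 and 16.0 CPM in WT LECs and 23.8, 70.1 and 220.4 CPM (lowest, median and highest) in WT IntSCs. The groups did not overlap, and the log2 fold change was -2.87 ± 0.55 (SE, edgeR BH-adjusted p = 0.00144). Ccl27a, a ligand of CCR10, was at 123, 89.9, 111 and 89.2 CPM in LECs and 93.5 to 203 CPM in IntSCs, a log2 fold change of -0.55 (95% interval -1.11 to 0.00, edgeR BH-adjusted p = 0.155). Its near copy Ccl27b was at 9.80, 5.43, 10.8 and 9.20 and 10.2 to 23.0 CPM (edgeR BH-adjusted p = 0.503). The monocyte-attracting Ccl2, a CCR2 ligand, was at 4.85, 0, 0 and 7.30 CPM in LECs and 1.90 to 13.9 CPM in IntSCs, and Ccl8 at 10.7, 2.72, 0 and 0 and 3.27 to 27.4 CPM. Neither passed, with edgeR BH-adjusted p of 0.658 and 0.547.

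**Figure D3:**
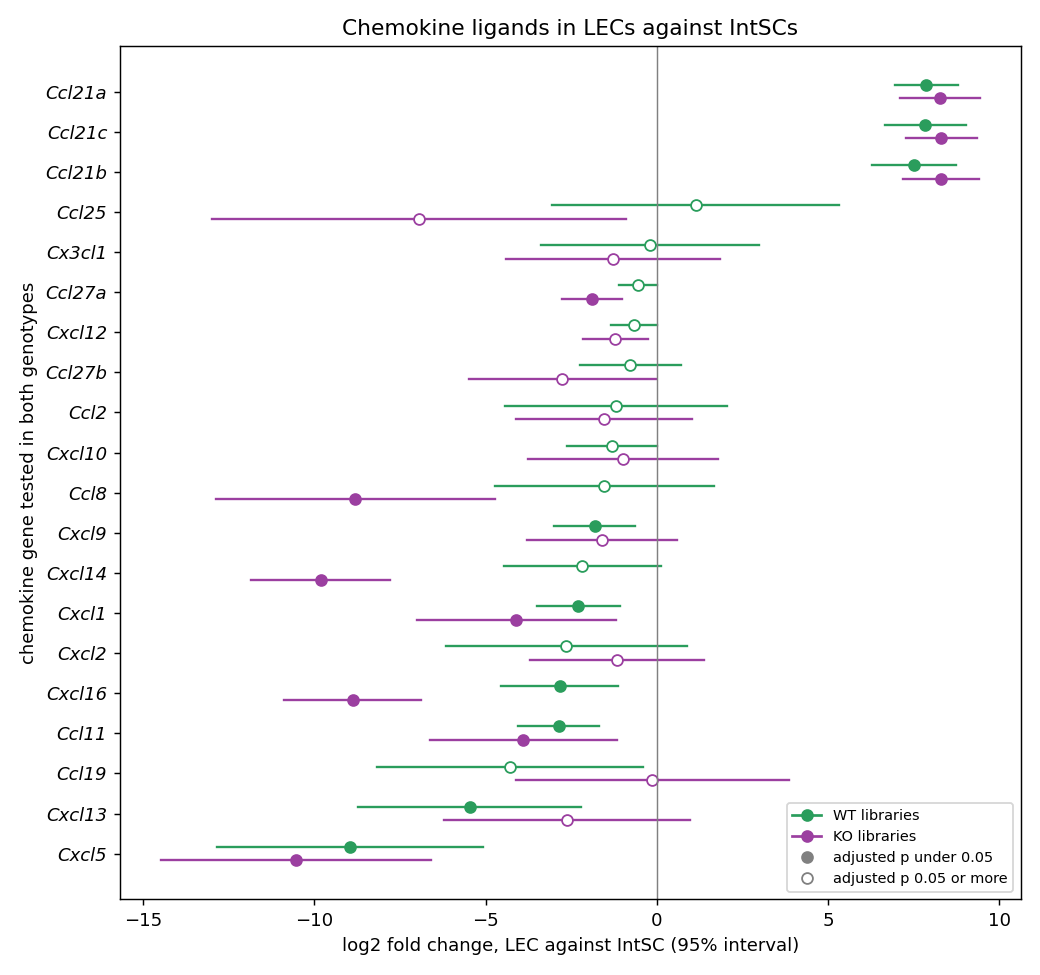
Log2 fold change of LECs against IntSCs with its 95% interval for the 20 chemokine genes tested in both genotypes (y axis), in WT (green) and KO (purple) libraries; filled points passed an edgeR BH-adjusted p under 0.05. Ccl21a, Ccl21b and Ccl21c lie at 7.51 to 8.31, the other genes that passed lie below 0, and intervals are wide where a group had few reads.

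In KO mice the same comparison was made over KO LEC and KO IntSC libraries. Of 23 chemokine genes tested, 11 passed, 4 higher and 7 lower in LECs, beside 25.9% of all genes (9.11% higher and 16.8% lower). The median log2 fold change was -1.60 over the 23 and -0.21 over all genes. Ccl21a was at 2933, 3777 and 4875 CPM in KO LECs and 8.25, 11.4, 13.3, 25.5 and 4.52 CPM in KO IntSCs, and Ccl21b at 3769.8, 3438 and 3919 and 12.4, 7.13, 15.3, 20.1 and 3.86 CPM. Ccl21c was at 1314, 1194 and 1342 CPM in KO LECs and 1.60 to 6.13 CPM in KO IntSCs. As in WT, no IntSC library came near a LEC library, with log2 fold changes of 8.25 ± 0.53, 8.29 ± 0.50 and 8.31 ± 0.47 (SE, edgeR BH-adjusted p of 4.50e-06, 3.83e-06 and 2.90e-06). The remaining gene higher in LECs was Cxcl17, a mucosal chemokine-like protein at chr7:25400053-25412886. Cxcl17 had 1 read in the 5 KO IntSC libraries and was at 28.7, 42.6 and 14.0 CPM in KO LECs, a ratio of summed counts of 1100 (95% exact binomial interval 197 to 43500), with an edgeR BH-adjusted p of 0.000746. In control mice it did not pass the count filter of that comparison, at 6.19, 4.82, 13.0 and 0.10 CPM in WT LECs and 2 reads in WT IntSCs, a ratio of 118 (95% exact binomial interval 32.4 to 983). It was called higher in WT LECs too with no filter beyond 1 read, with a mean count of at least 10, in 1 fit of all 4 groups and without WT LEC replicate 4.

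The genes lower in KO LECs than in KO IntSCs included some with almost no reads in KO LECs. Cxcl14 was at 56.9, 38.8, 48.5, 54.0 and 50.5 CPM in KO IntSCs and had 1 read in the 3 KO LEC libraries, a ratio of 1240 (95% exact binomial interval 222 to 48900), with an edgeR BH-adjusted p of 4.09e-05. Cxcl16 was at 41.5, 52.2, 50.0, 26.4 and 54.4 CPM and had 2 reads in KO LECs, a ratio of 564 (95% exact binomial interval 156 to 4660), with an edgeR BH-adjusted p of 7.17e-05. Both genes were thus at the counting floor in KO LECs while each KO IntSC library held at least 177 reads of either. Cxcl5, at 31.3, 7.54, 34.4, 5.22 and 41.2 CPM in KO IntSCs, and Ccl8, at 9.29, 3.43, 8.06, 8.51 and 6.38 CPM, had no read in KO LECs. Against a floor of 3 counts over the group they were at least 205-fold and at least 59.3-fold lower (edgeR BH-adjusted p of 0.00297 and 0.00806).

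Ccl27a, Ccl11 and Cxcl1 kept reads in KO LECs. Ccl27a was at 74.9, 30.9 and 25.8 CPM in KO LECs and 182, 198, 165, 156 and 109 CPM in KO IntSCs, without overlap (log2 fold change of -1.89 ± 0.39, SE, edgeR BH-adjusted p = 0.00623). Ccl11 was at 22.4, 0 and 6.33 CPM in KO LECs and 173, 27.0, 206, 193 and 106 CPM in KO IntSCs, and Cxcl1 at 0.699, 25.7 and 0 and 172, 95.3, 247, 106 and 147 CPM. KO LEC replicate 2 held nearly all Cxcl1 reads and no Ccl11 read, so the 2 genes were not high in the same LEC library. Their log2 fold changes of -3.90 and -4.11 passed narrowly (edgeR BH-adjusted p of 0.0406 and 0.0422). The call of Ccl11 was lost without KO LEC replicate 3 or without KO IntSC replicate 1, 3, 4 or 5 (adjusted p up to 0.0909), and that of Cxcl1 without KO LEC replicate 1 or any 1 KO IntSC library (adjusted p up to 0.0841). Cxcl12 was at 29.9, 69.8 and 103 CPM in KO LECs and 204, 189, 191, 107 and 94.5 CPM in KO IntSCs and did not pass (log2 fold change of -1.22, edgeR BH-adjusted p = 0.0584).

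The next comparison asked which chemokine genes differed between KO and WT IntSCs, the cells in which Lats1 and Lats2 were targeted. None of 21 tested passed, beside 1.47% of all genes. Unadjusted p values under 0.05 were found for 5 of them, Cxcl16 and Cxcl9 with lower and Ccl2, Cxcl13 and Cxcl2 with higher levels in KO, beside 1219 of all 12421 genes tested at that threshold. DESeq2 called 2, Cxcl16 and Ccl2, and limma-voom none. The median log2 fold change of the 21 was -0.05, against 0.0026 over all genes.

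Cxcl16 came closest to the threshold. It was at 41.5, 52.2, 50.0, 26.4 and 54.4 CPM in KO IntSC libraries 1 to 5 and at 81.7, 73.3, 53.8, 122, 86.0 and 134 CPM in WT IntSC libraries 1 to 6. Only WT replicate 3 lay within the KO range, at a level just under the highest KO library. The log2 fold change was -1.04 ± 0.27 (SE, 95% interval -1.59 to -0.48, edgeR BH-adjusted p = 0.0535), and without WT IntSC replicate 3 the adjusted p was 0.0305. The stromal marker sum was also lower in most KO IntSC libraries (8011 to 13160 against 12100 to 17350 CPM), with a median log2 fold change of -0.545 over its 9 genes. Pdgfrb alone of these was higher in KO, at means of 485 CPM in WT and 879 CPM in KO. The part of stromal RNA in the Cxcl16 levels was not tested. Cxcl9 was at 6.94, 8.91, 23.8, 49.3 and 5.72 CPM in KO and 28.1, 36.9 and 72.8 CPM (lowest, median and highest) in WT. KO replicate 4 alone lay inside the WT range, and without it the log2 fold change moved from -1.18 ± 0.49 (SE, edgeR BH-adjusted p = 0.379) to -1.93 (adjusted p = 0.0294). Cxcl10 was also highest in KO replicate 4, at 16.6, 4.39, 24.5, 57.9 and 6.25 CPM in KO and 6.75 to 46.0 CPM in WT (edgeR BH-adjusted p = 0.915).

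Ccl2, at chr11:82035571-82037453, was at 41.5, 4.52, 26.3, 37.6 and 24.7 CPM in KO IntSCs and 1.90, 6.45 and 13.9 CPM (lowest, median and highest) in WT IntSCs. Of the KO libraries 4 lay above every WT library, and replicate 2 lay inside the WT range. The log2 fold change was 1.93 ± 0.59 (SE, 95% interval 0.71 to 3.15, edgeR BH-adjusted p = 0.126). Cxcl2, a CXCR2 ligand, was at 16.4, 4.52, 32.0, 13.6 and 12.8 CPM in KO and 3.16, 5.38 and 7.74 CPM in WT, with KO replicate 2 again the low one (log2 fold change of 1.55 ± 0.60, SE, edgeR BH-adjusted p = 0.316). Cxcl13, at chr5:95956951-95961068, was at 32.5, 17.4, 95.6, 17.3 and 45.9 CPM in KO and 3.71, 14.1 and 24.3 CPM in WT. Its KO libraries 2 and 4 lay inside the WT range, and the log2 fold change was 1.63 ± 0.51 (SE, edgeR BH-adjusted p = 0.142).

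The other stromal chemokines had overlapping ranges. Cxcl12 was at 204, 189, 191, 107 and 94.5 CPM in KO and 128, 206 and 246 CPM in WT, a log2 fold change of -0.36 (95% interval -0.83 to 0.11, edgeR BH-adjusted p = 0.685). Cxcl1 was at 172, 95.3, 247, 106 and 147 CPM in KO and 27.4 to 198 CPM in WT (log2 fold change of 0.24, 95% interval -0.55 to 1.02). Ccl11, at chr11:82057823-82062955, was at 173, 27.0, 206, 193 and 106 CPM in KO and 23.8 to 220.4 CPM in WT (log2 fold change of 0.64, 95% interval -0.56 to 1.83). KO IntSC replicate 2 was the lowest KO library for Ccl2, Cxcl1, Cxcl2, Ccl11 and Cxcl10. Of the 21 genes tested, Ccl27a had the narrowest interval (-0.37 to 0.55, log2 fold change of 0.09), and Cxcl14, at 0.26, had one of -0.30 to 0.83. The few Ccl21 reads of IntSCs gave log2 fold changes of -0.51, -0.54 and -0.21 for Ccl21a, Ccl21b and Ccl21c (edgeR BH-adjusted p of 0.887, 0.900 and 0.984). Cxcl5 was at 31.3, 7.54, 34.4, 5.22 and 41.2 CPM in KO and 0 to 47.7 CPM in WT, Ccl19 at 6.68, 7.68, 1.80, 0 and 4.79 and 0.674 to 36.1 CPM, and Cx3cl1 at 16.8, 2.88, 16.0, 10.9 and 18.3 and 0 to 28.3 CPM. The 95% intervals of these 3 genes, -1.71 to 2.10, -3.51 to 0.69 and -1.84 to 1.90, were wide, and differences inside them were not detectable with this spread.

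**Figure D4:**
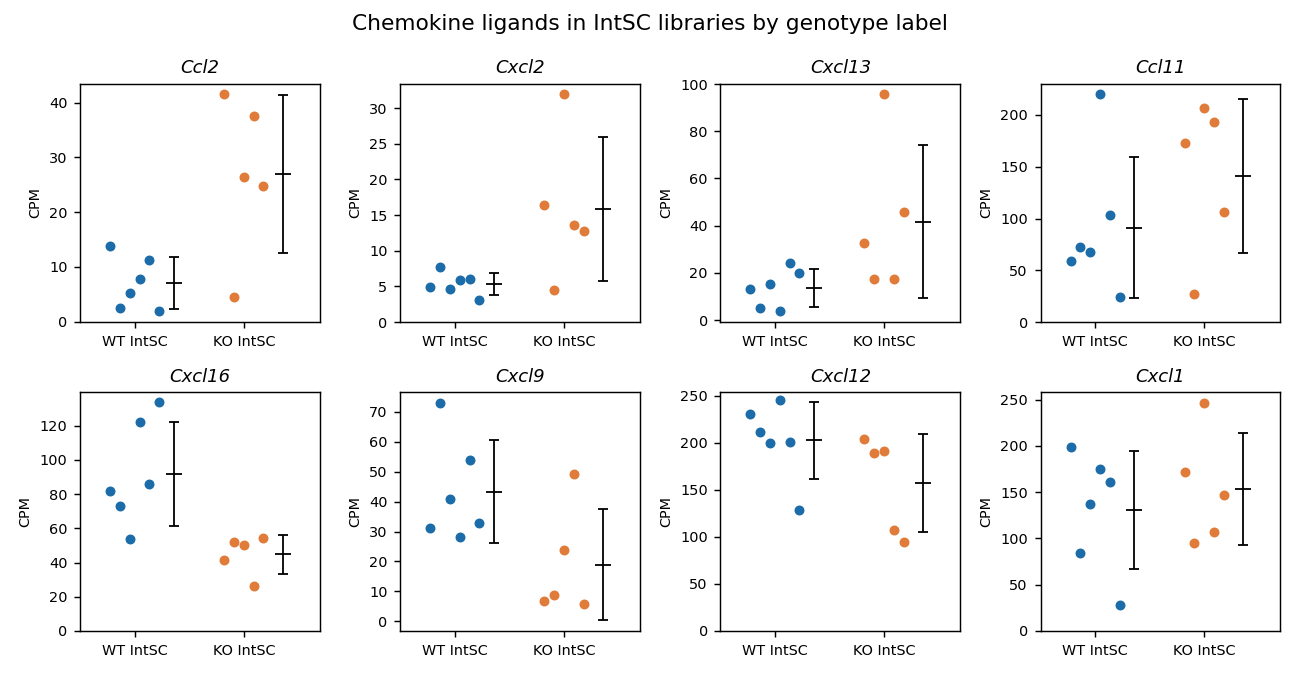
CPM of 8 chemokine genes in WT (blue, n = 6) and KO (orange, n = 5) IntSC libraries, 1 point per library, with black bars for mean and SD. Ccl2 was 7.08 CPM in WT and 26.9 CPM in KO on average, Cxcl16 was 91.9 and 44.9 CPM, and each panel holds at least 1 library of a group inside the range of the other.

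In LECs the KO and WT libraries were compared although the LECs themselves were not targeted. None of 15 chemokine genes tested passed, beside 0.0658% of all genes, which is 7 genes. Unadjusted p values under 0.05 were found for 2, Cxcl16 and Ccl27a, both with lower levels in KO, beside 837 of all 10639 genes tested at that threshold. DESeq2 called Cxcl16, and limma-voom none. The median log2 fold change of the 15 was -0.31, against -0.03 over all genes.

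The ranges of all 3 Ccl21 rows overlapped between the genotypes. The log2 fold changes of KO against WT LECs were -0.05 for Ccl21a (95% interval -0.58 to 0.48), 0.33 for Ccl21b (-0.09 to 0.75) and 0.34 for Ccl21c (-0.14 to 0.81), with edgeR BH-adjusted p of 1, 0.824 and 0.893. Summed over the 7 near-identical symbols, the log2 fold change was 0.09 with a 95% interval of -0.35 to 0.54. Ccl21b was above Ccl21a in KO LEC replicate 1, where the ratio of Ccl21a to Ccl21b was 0.778, and below it in the other 6 LEC libraries, where it was 1.10 to 1.54.

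Cxcl16 was at 33.8, 11.6, 0.281 and 5.40 CPM in WT LECs and at 0, 0.103 and 0.124 CPM in KO LECs, that is, 506 reads against 2. Every KO library lay below every WT library, but WT replicate 3 had 3 reads and was at the floor itself. The ratio of summed counts was 160 (95% exact binomial interval 44.2 to 1330), with an edgeR BH-adjusted p of 0.518. Without WT LEC replicate 1, which held 355 of these reads, the gene did not pass the count filter and was not tested. Cxcl14 had 381 reads in WT LECs and 1 in KO LECs, of which 304 were in WT LEC replicate 1 and 75 in replicate 3. WT LEC replicates 2 and 4 had 1 read each, as did KO LEC replicate 2, and the gene did not pass the filter of this comparison. Ccl8 had 134 reads in WT LECs, in replicates 1 and 2 only, and none in KO LECs.

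Ccl27a was at 123, 89.9, 111 and 89.2 CPM in WT LECs and 74.9, 30.9 and 25.8 CPM in KO LECs, with every KO library below every WT library. Its log2 fold change was -1.17 ± 0.47 (SE, 95% interval -2.19 to -0.15, edgeR BH-adjusted p = 0.526). Its near copy Ccl27b was at 9.80, 5.43, 10.8 and 9.20 CPM and 0.839, 5.48 and 0.124 CPM, with KO replicate 2 just above the lowest WT library (edgeR BH-adjusted p = 1). Cxcl17 lay in the other direction, at 6.19, 4.82, 13.0 and 0.10 CPM in WT and 28.7, 42.6 and 14.0 CPM in KO LECs. All 3 KO libraries were above all 4 WT libraries, and the log2 fold change of 2.30 ± 1.45 did not pass (SE, edgeR BH-adjusted p = 0.869). Markers of epithelium, 9 genes of which Krt20 and Alpi were at 0 in all LEC libraries, summed to 2.00 to 28.9 CPM in WT LECs. In KO LEC libraries 1 to 3 they summed to 14.95, 73.4 and 128 CPM, the highest sum being in the library with the lowest KO Cxcl17 level. The list was split. Epcam, Cdh1, Krt8 and Krt18 had higher means in KO. Vil1 (5.59 CPM in WT and 0 in KO), Fabp2 (7.67 and 0.0344 CPM) and Lgals4 (0.0476 and 0 CPM) had lower means in KO. The part of epithelial RNA in the Cxcl17 level was not tested.

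The remaining LEC chemokines varied between single libraries of 1 genotype. Cxcl1 was at 0.699, 25.7 and 0 CPM in KO LECs, Cxcl13 at 0, 20.3 and 0, Ccl2 at 14.5, 13.1 and 0.124 and Cxcl2 at 0.280, 14.6 and 6.33 CPM. KO LEC replicate 2 was thus the highest or next to highest for each of these. For Ccl2 and Cxcl2, WT LECs were at 4.85, 0, 0 and 7.30 and 3.24, 0.124, 0 and 0 CPM, and the 95% intervals of the log2 fold changes were -3.42 to 6.78 and -2.12 to 8.38. Cxcl12 was at 29.9, 69.8 and 103 CPM in KO and 206, 106, 54.2 and 137 CPM in WT LECs (log2 fold change of -0.82, 95% interval -1.92 to 0.28, edgeR BH-adjusted p = 0.865). Cxcl9 was at 9.08, 4.65 and 5.09 CPM in KO LECs, inside the WT range. Cxcl10 was at 0.140, 19.1 and 14.3 CPM in KO LECs and 3.94 to 18.8 CPM in WT LECs, with KO replicate 1, which had 1 read, below every WT library.

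**Figure D5:**
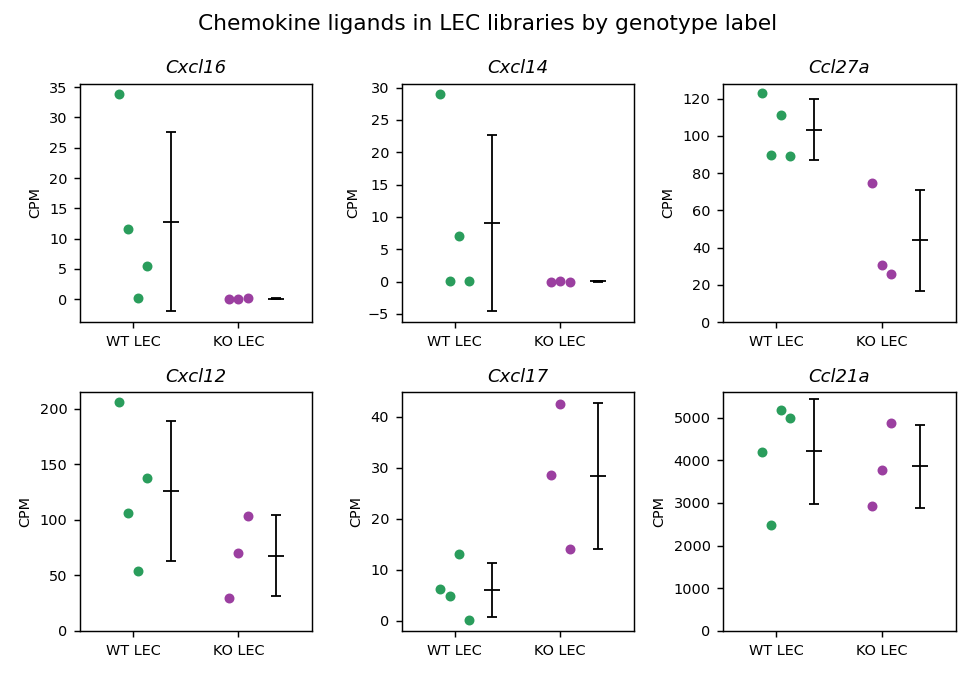
CPM of 6 chemokine genes in WT (green, n = 4) and KO (purple, n = 3) LEC libraries, 1 point per library, with black bars for mean and SD. Cxcl16, Ccl27a and Cxcl17 do not overlap between the groups, while Ccl21a overlaps. Their means are 12.8 and 0.0758, 103 and 43.9, and 6.04 and 28.4 CPM in WT and KO for the 3 genes without overlap. None of the genes shown passed the edgeR threshold, and how many of all genes do not overlap in this way was not counted.

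Whether the KO against WT difference was unlike in LECs and IntSCs was tested as an interaction over all 18 libraries. Of 25 chemokine genes tested, 2 passed, Cxcl16 and Cxcl14, beside 1.70% of all genes. For both the log2 fold change was lower in LECs than in IntSCs, by -6.03 ± 1.26 for Cxcl16 and -7.63 ± 1.72 for Cxcl14 (SE, edgeR BH-adjusted p of 0.0123 and 0.0201). These fitted values rest on KO LEC groups with 2 and 1 reads and give no fold. In IntSCs Cxcl14, at chr13:56288643-56296551, was at 56.9, 38.8, 48.5, 54.0 and 50.5 CPM in KO and 22.6 to 53.3 CPM in WT, so its levels overlapped there, and it was near 0 in KO LECs. Without WT LEC replicate 1 the interaction terms were -4.87 and -5.73 (edgeR BH-adjusted p of 0.0227 and 0.0474). The Cxcl14 call was lost without KO LEC replicate 1 or 3 (edgeR BH-adjusted p of 0.0683 and 0.0625), and limma-voom called neither gene (adjusted p of 0.196 for Cxcl16 and 0.196 for Cxcl14). Stromal markers summed to 2238 CPM in WT LEC replicate 1 and 644 to 684 CPM in WT LEC replicates 2 to 4. In KO LECs they summed to 321 to 539 CPM. In replicates 2 to 4 of the WT LECs, Cxcl16 was at 11.6, 0.281 and 5.40 CPM and Cxcl14 at 0.124, 7.04 and 0.10 CPM. The part of stromal RNA in the difference was not tested. The interaction of the summed Ccl21 rows was 0.49 with a 95% interval of -0.87 to 1.86.

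Receptors that take up chemokines without signalling through G proteins were measured on both sides. Of 5 atypical receptors tested in WT, 2 were higher and 1 lower in LECs. Ackr3, which scavenges Cxcl12 and lies at chr1:90203980-90216751, was at 359 to 606 CPM in WT LECs and 22.5 to 41.2 CPM in WT IntSCs (log2 fold change of 3.99 ± 0.27, SE, edgeR BH-adjusted p = 5.41e-08). Ackr2, which takes up inflammatory CC ligands, was at 84.5 to 157 and 0 to 1.49 CPM (edgeR BH-adjusted p = 2.59e-06). Ackr4, which takes up Ccl19, Ccl21 and Ccl25, was the one on the stromal side, at 2.06 to 98.0 CPM in WT LECs and 365 to 1492 CPM in WT IntSCs (log2 fold change of -4.18 ± 0.76, SE, edgeR BH-adjusted p = 0.00114). In KO mice the same 3 genes passed in the same directions.

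Ackr3 also rose in KO IntSCs. It was at 49.1 to 97.3 CPM in KO IntSCs, above all 6 WT libraries at 22.5 to 41.2 CPM, with a log2 fold change of 1.24 ± 0.27 (SE, edgeR BH-adjusted p = 0.0229), and it was 1 of 4 atypical receptors tested there. The adjusted p was 0.0532, 0.0879 and 0.0625 without KO IntSC replicate 1, 3 and 4, so the call rests on these libraries. In LECs it was at 288 to 432 CPM in KO and 359 to 606 CPM in WT, and the interaction was -1.73 ± 0.39 (SE, edgeR BH-adjusted p = 0.0201), which limma-voom did not call (adjusted p = 0.0825). Markers of LECs, the population with the higher Ackr3 levels, summed to 573 to 732 CPM in KO IntSCs and 353 to 538 CPM in WT IntSCs, after depletion of CD31+ cells from the IntSC samples. Most of that sum was Pdpn (means of 239 in WT and 329 CPM in KO) and Nrp2 (129.9 and 173 CPM). The list was split among its less abundant genes. Lyve1 (5.49 and 5.39 CPM), Mmrn1 (2.19 and 1.76 CPM) and Reln (3.37 and 2.07 CPM) were no higher in KO on average. Flt4 (3.87 and 9.46 CPM) and Cdh5 (10.5 and 19.4 CPM) were higher in KO, and Prox1 had means of 0.0794 and 0.0805 CPM. Pecam1, shared by blood and lymphatic endothelium, was at means of 37.7 CPM in WT and 88.2 CPM in KO, and the part of endothelial RNA in the Ackr3 level was not tested. Signalling chemokine receptors were scarce, with 10 of 19 at 0 in WT IntSCs and 14 of 19 at 0 in KO LECs, and none of the 5 tested in IntSCs and of the 2 tested in LECs passed between genotypes. Of those tested between cell types, 0 of 4 passed in WT and 1 of 5 in KO, Ccr9, at a mean of 5.40 CPM in KO IntSCs and with no read in KO LECs (edgeR BH-adjusted p = 0.0446).

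Genes that switch on with NF-kappaB signals and within minutes of stimulation were counted beside the inducible chemokines. None of 10 NF-kappaB feedback genes passed between genotypes in IntSCs or in LECs. In WT, LECs had a higher level of Nfkbia, the inhibitor of NF-kappaB (mean of 2196 against 1001 CPM, edgeR BH-adjusted p = 0.000429), and a lower level of Nfkbiz (24.9 against 70.2 CPM, edgeR BH-adjusted p = 0.0217), and the other 8 did not pass. In KO, Zc3h12a, which degrades inflammatory mRNAs, was the only one of the 10 to pass, at means of 0.259 CPM in LECs and 50.4 CPM in IntSCs (edgeR BH-adjusted p = 0.000284). In the interaction 2 of 10 passed, Nfkbia (-1.04, edgeR BH-adjusted p = 0.0364) and Zc3h12a (-5.73, edgeR BH-adjusted p = 0.0182), both with a lower KO against WT difference in LECs.

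Immediate early genes are also raised by tissue dissociation. Their 12 genes summed to 6738 to 12800 CPM in WT IntSCs and 9932 to 15330 CPM in KO IntSCs, and 0 of 12 passed there. In LECs the sum was 4159 to 4681 CPM in WT and 2075 to 2437 CPM in KO, and 1 of 12 passed, Junb, which was lower in KO (log2 fold change of -1.59 ± 0.24, SE, edgeR BH-adjusted p = 0.0259). LECs were lower than IntSCs in 7 of 12 of these genes in WT, led in size by Egr1 and Zfp36, and in 12 of 12 in KO. In the interaction 4 of 12 passed, Junb, Fos, Ier3 and Dusp1, each with a lower KO against WT difference in LECs. The part of these signals in the chemokine levels was not tested.

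The remaining chemokine genes were low or seen in few libraries. Ccl6, made by myeloid cells, was at 0, 8.99 and 25.8 CPM in KO LECs, at most 1 read in any WT LEC library, 0, 2.19, 3.97, 10.1 and 12.9 CPM in KO IntSCs and 0.131 to 3.80 CPM in WT IntSCs. It was tested in IntSCs (log2 fold change of 1.77, edgeR BH-adjusted p = 0.766) and not in LECs. Leukocyte markers summed to 14.8 CPM in KO LEC replicate 3, where Ccl6 was highest, and to 9.64 and 0.310 CPM in replicates 1 and 2. Nearly all of the sum in replicate 3 was Laptm5 (14.3 CPM), and nearly all of that in replicate 1 was Cd52 (9.36 CPM). Itgam had no read in KO LECs, and Csf1r, Lyz2 and Ptprc were at most 0.14 CPM there. Some reads sat in single libraries: Ccl25, the CCR9 ligand of small intestinal epithelium, had 264 reads in WT LEC replicate 4 and none in the other LEC libraries. Ccl3 had 96 of its 97 reads in KO LEC replicate 2, and Ccl5 had 123 reads in WT IntSC replicate 2. The leukocyte sums in those libraries were 0.310 and 51.1 CPM, within the range of their cell type. Ccl7 was seen in 4 of 5 KO IntSC libraries at up to 7.44 CPM, and 14 reads were found in WT IntSCs. Cxcl15 reached a group mean of 1.77 CPM in KO IntSCs, Cxcl11 1.05 CPM, Ccl9 0.726 CPM and Ccl24 0.501 CPM in WT IntSCs. Ccl17, Ccl20, Ccl28, Ccl4, Cxcl3 and Ccl12 had group means of at most 0.412 CPM.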

How the data were processed

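RNA of FACS-sorted IntSCs and LECs was sequenced after library preparation with a Lexogen Quant-Seq kit on an Illumina NextSeq 500, following depletion of epithelium and CD45+ cells. The authors deposited 1 table of raw read counts per gene and sample, with no normalization. The submitters' processing notes name Bowtie2, edgeR and the mm10 build, and the study's methods name TopHat and Cufflinks. The counting program and annotation were not given in the sources used here.

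Groups were taken from the sample labels. Rows with the same symbol were summed. The robust quasi-likelihood F test of edgeR 4.0.16 (R 4.3.3) was run on the counts after filterByExpr and TMM scaling, each comparison fitted over all genes of its groups, with Benjamini-Hochberg adjustment over all genes tested and a threshold of 0.05. CPM used 1 set of TMM factors over the 18 libraries. Fold changes against a group of 0 reads used a floor of 3 counts over the group, and ratios of few reads an exact binomial interval at 95%. Intervals and floors cover counting error only, since no molecular identifiers are described. The labels do not say which animal a library came from. The study's supplement gives as many mice per group as there are libraries, pooled from several experiments, and which experiment each library came from is not given in the sources used here. Values per library were given for chemokine genes with a mean of at least 10 CPM in 1 group or an adjusted p under 0.05 in any comparison. Statements that groups did not overlap carry no test of their own, and the share of all genes without overlap was not counted. Receptor, feedback and immediate early genes were named if they passed and had a mean of at least 5 CPM, at most 5 per list and comparison. The members and gene lists were chosen with earlier results of these data known. DESeq2 1.42.0, limma-voom (limma 3.58.1), other scaling factors and filters, a replicate block, 1 fit of all groups and the omission of each library were alternatives, and 2 treatments of the Ccl21 copies were added after seeing the data. The scripts were tested on simulated data. Sequences and coordinates were read from GENCODE vM21 on GRCm38.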

Additional observations from a re-analysis of the deposited data

Results flagged for a closer look

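Values far from the rest of their group were found in 5 of 58 sets of 1 chemokine gene in 1 group of 4 to 6 libraries, by Dixon's test at its 95% critical value, where chance alone marks about 1 in 20. WT IntSC replicate 3 stood out in 3 of them. It held 39.3 CPM of Ccl21a, with 21.1 CPM in the next library, 13.3 CPM of Ccl21c, with 4.30 CPM in the next, and 27.4 CPM of Ccl8, with 9.59 CPM in the next. WT LEC replicate 1 stood out for Ccl19, at 2.19 CPM against 0 in the other 3 libraries, and for Cxcl2, at 3.24 CPM against 0.124 CPM in the next library.

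The KO against WT difference was unlike in LECs and IntSCs, by the interaction term of edgeR over 18 libraries, for Cxcl16 (-6.03 on the log2 scale), Cxcl14 (-7.63) and the scavenging receptor Ackr3 (-1.73). Each value is the LEC difference minus the IntSC difference, and limma-voom called none of the 3 (adjusted p of 0.196, 0.196 and 0.0825).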

How the results depend on the processing

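No chemokine or Ackr3 call changed its direction under an alternative, and the other receptor, feedback and immediate early genes were not rerun. Between KO and WT IntSCs, where no chemokine gene passed, DESeq2 called 2 (Ccl2 and Cxcl16), the test without a filter beyond 1 read called 1 (Cxcl16), and leaving out 1 library gave 0 to 1. Between KO and WT LECs, DESeq2 called 1 (Cxcl16), 1 fit of all 4 groups called 2 (Cxcl14 and Cxcl16), and leaving out 1 library gave 0 to 0. For LECs against IntSCs in WT the count of 9 ranged from 7 to 13 without 1 library, 13 of them without WT LEC replicate 1. In KO the count of 11 ranged from 9 to 13 without 1 library. For the interaction, DESeq2 called 4 (Ccl25 and Ccl8 in addition), limma-voom 0, and leaving out 1 library gave 1 to 3. The cause of these differences was not tested.

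Deviations from the group means of same-numbered samples had mean correlations of 0.00417, -0.000481, 0.0241 and 0.00177 over the 4 pairs of groups. Between WT IntSCs and WT LECs the same-numbered pairs were at 0.018 to 0.0298, against a mean of -0.00481 for different numbers. So few pairs cannot decide whether same-numbered libraries share an animal or an experiment. With the number as a replicate block, 0 chemokine genes passed between genotypes in IntSCs and 0 in LECs, 6 in place of 9 in WT and 7 in place of 11 in KO between cell types, and 0 in the interaction. Ackr3 then lost its call between genotypes in IntSCs (adjusted p = 0.0977) and in the interaction (adjusted p = 0.242).

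Over all genes, the counts called between genotypes were 183 in IntSCs (376 by DESeq2, 27 in 1 fit of all groups, 122 with the block, 99 to 186 without 1 library) and 7 in LECs (309, 538, 3 and 0 to 16). With the block, WT LEC against IntSC gave 1596 in place of 2763, KO 895 in place of 3302 and the interaction 16 in place of 238, where DESeq2 gave 1035 limma-voom 143 and leaving out 1 library 161 to 461. The median of all genes in WT LEC against IntSC moved from -0.04 to -0.15 with upper-quartile factors. For Cxcl16, Cxcl14, Cxcl5, Ccl8 and Cxcl17 the smaller group held 0 to 2 reads, so the sizes of their fold changes are uncertain.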
